A study of Mus musculus with 44 samples.

Results

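The 8 genes described here encode the liver-type and muscle-type forms of glucose transporters and glycolytic enzymes: Slc2a2 and Slc2a4 (transporters GLUT2 and GLUT4), Hk2 (hexokinase 2), Pfkl and Pfkm (liver and muscle phosphofructokinase), Aldoa (aldolase A), Pklr (liver and red cell pyruvate kinase) and Pkm (muscle pyruvate kinase). They were chosen by name, as forms that serve the same steps in the 2 tissues, and all 8 were found among the 38202 genes of the deposited tables. RNA-Seq of poly(A) RNA from 11 WT and 11 Slc16a13 KO male C57BL/6N mice gave 44 libraries, a liver and a skeletal muscle library for each animal. All mice were fed HFD for 15 weeks, were 20 weeks old and were killed after an overnight fast. The KO is constitutive and was made by CRISPR/Cas9 deletion of the promoter and the first exons of Slc16a13, which encodes a lactate transporter, and the WT mice were littermates.

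Glucose enters a cell through transporters of the SLC2 family and is then committed to glycolysis by 3 steps that run in a single direction, at hexokinase, phosphofructokinase and pyruvate kinase, with aldolase splitting the fructose bisphosphate between the last pair. Mammals carry several genes for most of these steps. Hepatocytes use forms fitted to taking up and releasing glucose according to its concentration in blood, among them GLUT2 and the L form of pyruvate kinase. Myofibres use GLUT4, which insulin and contraction bring to the cell surface, together with hexokinase 2, muscle phosphofructokinase, aldolase A and pyruvate kinase M.

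The regions around the transcription starts of the members were compared first. RefSeq windows on GRCm38.p6, each with 250 bases before and 50 after a start, were given for 7 of the 8 genes, and Slc2a4 had no entry. The 4 windows below are shown because they belong to the members that were nearly absent from muscle (Slc2a2 and Pklr) and to members detected in both tissues (Hk2 and Pkm). CpG dinucleotides are in capitals.
Slc2a2, chr3:28697653-28697952, + strand: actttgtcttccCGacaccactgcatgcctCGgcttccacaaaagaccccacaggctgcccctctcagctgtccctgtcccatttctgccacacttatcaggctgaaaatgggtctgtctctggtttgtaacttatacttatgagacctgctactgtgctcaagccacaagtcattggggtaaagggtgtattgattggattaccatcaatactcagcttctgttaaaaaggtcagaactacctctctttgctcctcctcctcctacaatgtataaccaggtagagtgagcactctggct
Pklr, downstream of its 2 listed starts, chr3:89136373-89136672, + strand: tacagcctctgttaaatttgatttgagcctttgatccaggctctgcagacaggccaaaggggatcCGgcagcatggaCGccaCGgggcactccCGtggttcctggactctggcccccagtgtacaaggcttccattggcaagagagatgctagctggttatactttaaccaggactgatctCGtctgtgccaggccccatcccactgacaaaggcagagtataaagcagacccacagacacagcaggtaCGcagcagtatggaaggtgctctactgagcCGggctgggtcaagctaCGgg
Hk2, chr6:82774405-82774704, - strand: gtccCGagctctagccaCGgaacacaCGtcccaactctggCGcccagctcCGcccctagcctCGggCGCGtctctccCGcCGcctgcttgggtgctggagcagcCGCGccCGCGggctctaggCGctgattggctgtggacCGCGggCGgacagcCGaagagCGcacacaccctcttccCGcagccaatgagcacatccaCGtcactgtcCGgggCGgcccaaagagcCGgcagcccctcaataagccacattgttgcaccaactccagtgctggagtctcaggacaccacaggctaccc
Pkm, upstream of its 2 listed starts, chr9:59656326-59656625, + strand: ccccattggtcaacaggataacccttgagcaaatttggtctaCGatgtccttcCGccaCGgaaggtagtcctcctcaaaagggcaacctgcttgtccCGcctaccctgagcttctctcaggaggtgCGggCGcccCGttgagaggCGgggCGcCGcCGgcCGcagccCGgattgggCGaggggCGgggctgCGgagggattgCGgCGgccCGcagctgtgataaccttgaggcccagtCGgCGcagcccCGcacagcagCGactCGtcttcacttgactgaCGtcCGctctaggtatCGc

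The Slc2a2 window held 2 CpG dinucleotides and the Pklr windows 3 and 8, against a median of 7 in all 32851 windows. The Hk2 window held 25, the Pkm windows 27 and 23, and the Pfkl window 20. The upper quartile of all windows was 20. The windows of Aldoa ranged from 0 at the upstream start to 24, and the windows of Pfkm from 4 to 12. Few CpG were therefore seen at starts of a liver form (Slc2a2) and of a muscle form (Pfkm) alike. The Pklr window above also held CACGGGGCACTCCCGTG, a match to the carbohydrate response element (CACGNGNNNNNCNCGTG), the sequence bound by the glucose-responsive factor ChREBP. This pattern was in 15 of all windows (0.0457%) and in no other window of the 7 members. TATAAA, which 13.6% of all windows held, was also in this Pklr window and in no other member window, and CACGTG (7.15% of all windows) was in 1 Pfkm window. Both strands were searched, the patterns were chosen after the sequences had been seen, and a match is a description and not a binding site.

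The depth of the libraries ranged from 20150712 to 35218243 counted reads. Slc16a13 fell in KO liver, from 99 to 302 reads in WT to 0 to 8 in KO livers (log2 fold change -5.45, adjusted p = 2.8e-11, edgeR). In muscle it had 4 to 22 reads in WT and 11 to 40 in the other libraries (log2 fold change 0.64, adjusted p = 0.49, edgeR). No fall was thus seen there. These reads are few and are counted per gene and not per exon, while the deletion takes only the promoter and the first exons. The paper describes expression in skeletal muscle as marginal. The reads therefore cannot settle the label in muscle, and the libraries concerned are named here as muscle libraries labelled KO. Libraries were pooled 11 at a time for sequencing and the pool of each was not given in the sources used here, so pool and group cannot be told apart. The tissues matched their markers: the summed level of 8 hepatocyte genes was at least 79165 CPM (read counts scaled to library size) in liver and at most 8.41 in muscle, and that of 7 myofibre genes was at least 159074 CPM in muscle and at most 70.6 in liver. In 4 KO livers (animals 532, 583, 602 and 611) the reads on long genes were low. The log2 CPM of each gene, less its mean over all livers, was regressed on log2 gene length. The slopes were -0.54, -0.25, -0.42 and -0.08 in these 4, while WT livers had 0.04 to 0.10. A slope is thus relative to the other livers, and the livers with a negative slope were set apart. The liver genotype results of the members are given with and without these libraries.

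**Figure D1:**
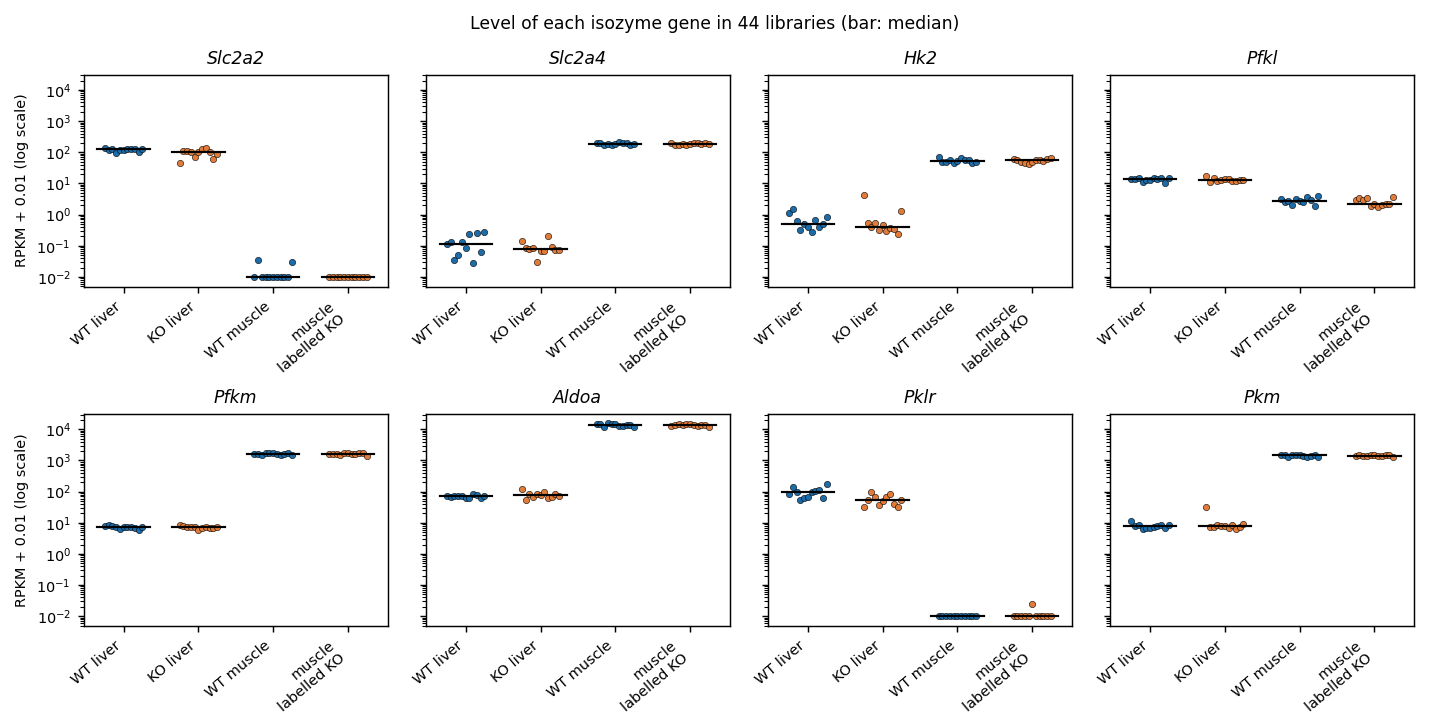
RPKM plus 0.01 on a log axis for each of the 8 genes in the 11 libraries of each group, with the median as a bar. Slc2a2 and Pklr sit at the bottom of the axis in muscle, Slc2a4 lies near 0.1 RPKM in liver, and Pfkl is the only liver form of the 3 whose muscle libraries all lie above 1.8 RPKM.

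The first comparison asked how the forms divide between the tissues. In WT mice, all 8 genes differed between muscle and liver, 5 being higher in muscle (Slc2a4, Hk2, Pfkm, Aldoa and Pkm) and 3 in liver (Slc2a2, Pfkl and Pklr), each by more than 4-fold (adjusted p of at most 4.8e-14, quasi-likelihood test of edgeR, Benjamini-Hochberg adjusted). Nearly every gene differed between these tissues: 91.0% of the 13907 genes tested passed the same test, 15.2% were called and at least 4-fold higher in muscle, and 17.8% were called and at least 4-fold higher in liver. The KO mice are other animals, and their muscle libraries are KO by label only, here and below. In these mice the same 8 genes were called in the same directions and again by more than 4-fold. There 86.7% of 13981 genes were called, 15.6% at least 4-fold higher in muscle and 17.5% at least 4-fold higher in liver. With the animal as a block in the fit, all 8 calls stood in both genotypes. In bulk tissue, fewer cells of a type and less RNA per cell cannot be told apart.

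Slc2a2, the low-affinity transporter of hepatocytes, had 97.8, 125 and 138 RPKM (lowest, median and highest; reads scaled to library size and gene length) in WT livers. In WT muscle 2 reads in all were counted over the 11 libraries, and in the muscle libraries labelled KO none. By pooled CPM the WT ratio of liver to muscle was 41081, with an exact Poisson 95% interval of 11373 to 339221 that covers counting error only. In KO mice Slc2a2 was 21427-fold higher in liver against a floor of 3 reads over the group. The lower end of its exact Poisson 95% interval was 17426. The groups were far apart in both genotypes, and the size of the ratio is set by a handful of reads.

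Slc2a4, the insulin-regulated transporter, had 176, 186 and 207 RPKM in WT muscle and 0.018, 0.101 and 0.261 in WT liver. Its log2 difference, muscle over liver, was 11.24 (SE 0.15) in WT and 11.81 (SE 0.16) in KO mice. Every liver held at least 1 read of Slc2a4 and none more than 12, and 52 reads were counted in the 11 WT livers together. Traces of myofibre RNA were present in the same libraries. At the ratio of Slc2a4 to the 7 myofibre genes seen in WT muscle, these traces would carry 15.8% of the Slc2a4 reads of WT livers, and 12.1% in KO livers. The WT liver of animal 516 held most of these traces, and without it the WT share was 8.62%, while without the KO liver of animal 532 the KO share was 9.06%. The summed level of 5 adipocyte genes was 10.5 to 118 CPM in WT and 8.36 to 72.5 CPM in KO livers. The part of adipocyte RNA in the Slc2a4 reads was not tested, nor was the source of the remaining reads.

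Hk2, the hexokinase that phosphorylates glucose in muscle, had 46.2, 52.6 and 68.5 RPKM in WT muscle and 0.271, 0.507 and 1.498 in WT liver, a log2 difference of 6.69 (SE 0.14). The groups did not overlap, and in KO mice the log2 difference was 6.52 (SE 0.28).

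Pfkl and Pfkm encode subunits that combine into tetramers. Pfkm had 1479, 1650 and 1746 RPKM in WT muscle and 5.83, 7.26 and 8.45 in WT liver, a log2 difference of 7.78 (SE 0.09). Pfkl had 10.6, 13.8 and 15.5 RPKM in WT liver and 1.85, 2.81 and 3.93 in WT muscle, a log2 difference of -2.40 (SE 0.09), the smallest among the 8 genes. In liver the pair lay close together, so Pfkm, the muscle form, supplied a median of 32.8% of the RPKM of the 3 phosphofructokinase genes (28.2% to 36.5%), against 61.3% for Pfkl.

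Aldoa, the aldolase of muscle and of most dividing cells, was the most abundant member, at 11909, 14115 and 15458 RPKM in WT muscle. In WT liver it had 61.5, 70.8 and 85.8 RPKM, a log2 difference of 7.50 (SE 0.11). The Aldoa level is uncertain to the extent that near-identical retrogene copies share its reads. The deposited RPKM are described as those of unique reads, which would leave shared reads out, and the criterion for a unique read is not given in the sources used here.

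Pklr had 52.8, 94.6 and 171 RPKM in WT liver, no read in the 11 WT muscle libraries and 1 read in the 11 muscle libraries labelled KO. In WT mice Pklr was 23898-fold higher in liver against the floor of 3 reads over the group. The lower end of its exact Poisson 95% interval was 19435. Pkm had 1275, 1485 and 1523 RPKM in WT muscle and 6.45, 7.60 and 11.3 in WT liver, a log2 difference of 7.49 (SE 0.11). Counts per gene do not separate the M1 and M2 splice forms of Pkm, nor the liver and red cell starts of Pklr.

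Placed in order by median RPKM, WT muscle ran from Aldoa through Pfkm, Pkm, Slc2a4, Hk2 and Pfkl to Slc2a2 and Pklr at 0. The ranges of Pfkm and Pkm overlapped, and those of the other neighbours from Aldoa to Pfkl did not. WT liver ran from Slc2a2 through Pklr, Aldoa, Pfkl, Pkm, Pfkm and Hk2 to Slc2a4. There the ranges of Slc2a2 and Pklr, of Pklr and Aldoa, of Pfkl and Pkm and of Pkm and Pfkm overlapped, while Aldoa and Pfkl, Pfkm and Hk2, and Hk2 and Slc2a4 were apart.

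**Figure D2:**
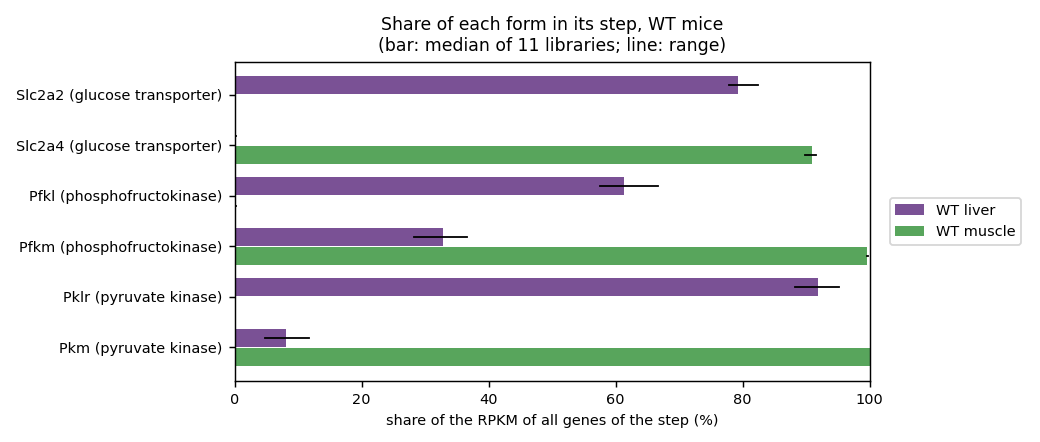
Horizontal bars give the median share, in percent, of each form in the summed RPKM of all genes of its step in 11 WT livers and 11 WT muscle libraries, and lines give the range. In muscle 1 form holds a median of at least 90.9% at every step drawn, whereas in liver Pfkm keeps 32.8% of phosphofructokinase and Pkm 8.11% of pyruvate kinase.

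For transporters, phosphofructokinase and pyruvate kinase, the leading form held a larger share of its step in muscle than in liver. In WT muscle Pfkm made up 99.6% of phosphofructokinase RPKM, Slc2a4 90.9% of the 10 glucose transporters, Hk2 92.0% of the 5 hexokinases, and Aldoa and Pkm nearly all of theirs (medians). In WT liver Slc2a2 made up 79.3% of the transporters, followed by Slc2a9 with 11.7%, a urate carrier. Pklr made up 91.9% of the pyruvate kinases. Of these 3 steps, the phosphofructokinase sum was 71.5-fold higher in WT muscle than in WT liver (ratio of medians), the pyruvate kinase sum 14.4-fold and the transporter sum 1.31-fold. RPKM compares genes per length within the authors' scaling and says nothing of protein.

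The other genes of the pathway were read from a list of 32 genes. In WT mice 30 of them were tested, of which 18 were higher in muscle, 11 were higher in liver and 1, Slc2a8, did not pass (log2 difference -0.08, SE 0.06). The median log2 difference over the 30 genes was 1.01, against 0.00 over all genes tested. At least 4-fold differences were called for 12 genes in muscle and 9 in liver. Further down the pathway, 2 steps were divided in the same way and lactate dehydrogenase was not. Pgam2, the muscle phosphoglycerate mutase, was higher in muscle by 11.88 and Eno3, the muscle enolase, by 10.14 on the log2 scale, while Pgam1 and Eno1 had log2 differences of -4.02 and -2.70. Ldha and Ldhb, the lactate dehydrogenase genes, were both higher in muscle, by 1.29 and 4.33. Gapdh and Tpi1 were higher in muscle by 2.27 and 2.16. Of 13 regulators, 8 were higher in muscle and 5 in liver, with Mef2c, a myogenic factor, higher in muscle by 6.95 on the log2 scale. In KO mice 31 of the list were tested, with 18 higher in muscle, 12 higher in liver and Pfkfb1 not passing.

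The next comparison asked whether the forms differed between KO and WT liver. None of the 7 members tested in liver passed the adjusted threshold, with adjusted p between 0.38 and 0.90 (edgeR), and Slc2a4 was below the filter on low counts. Of all 13005 genes tested, 3 passed, which is 0.0231%. At an unadjusted p under 0.05 there were 3 members, Pklr and Slc2a2 with lower and Aldoa with higher means in KO livers, against 12.9% of all genes. Without the 4 KO livers short of reads on long genes, 0 of the 7 members had an unadjusted p under 0.05, against 2.96% of all genes. In the fit with all livers, the median log2 fold change was 0.07 over the 7 members and -0.01 over all genes.

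**Figure D3:**
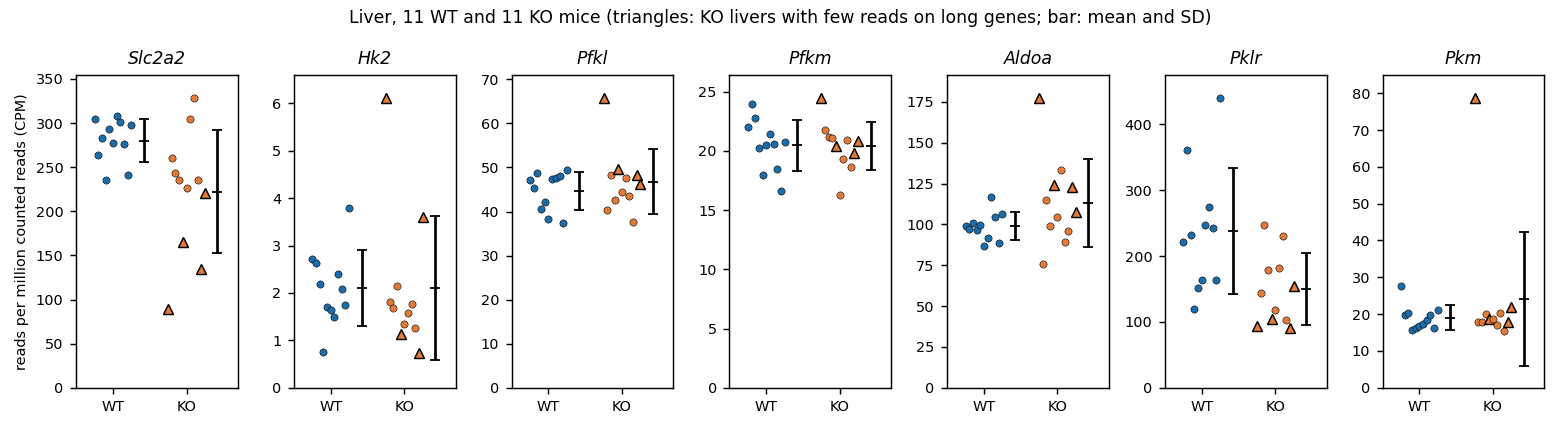
CPM (linear axes from 0) of the 7 members tested in liver, in 11 WT and 11 KO mice, with mean and SD as a bar. Triangles mark the 4 KO livers with few reads on long genes, which hold the 4 lowest Slc2a2 values and the highest Pkm, Hk2, Aldoa and Pfkl values.

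Pklr had the largest difference. Its level was 120, 232 and 441 CPM (lowest, median and highest) in WT livers and 90.6, 143 and 247 in KO livers. The ranges overlapped, and the SD was 95.3 CPM in WT and 54.7 CPM in KO livers. The log2 fold change was -0.61 (SE 0.20, unadjusted p = 0.0055, adjusted p = 0.38, edgeR), and over the alternatives it ranged from -0.79 to -0.43 with adjusted p between 0.315 and 0.999. Without the 4 KO livers it was -0.43 (SE 0.22, adjusted p = 0.999). Red cell precursors also use Pklr, and the sum of 4 erythroid genes was 214 to 316 CPM in WT and 189 to 456 CPM in KO livers, whose part in the Pklr level was not tested. The summed level of the hepatocyte genes had a median of 90348 CPM in WT and 101461 CPM in KO livers. Its r with Pklr was -0.64 over 22 livers and -0.56 without the 4 KO livers, and its part was likewise not tested.

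Slc2a2 had 235, 283 and 308 CPM in WT livers and 89.4, 235 and 329 in KO livers. WT livers were narrowly spread, with an SD of 24.6 CPM against 70.0 in KO livers, and the 4 lowest values of all livers, 89.4, 135, 165 and 221 CPM, belonged to the 4 KO livers (animals 532, 602, 583 and 611). The log2 fold change was -0.29 (SE 0.14, adjusted p = 0.38, edgeR) and -0.07 (SE 0.07, adjusted p = 0.999) without the 4 KO livers. With the dependence on gene length removed in the fit it was -0.28 (adjusted p = 0.53), and without the liver of animal 532 alone -0.19. The summed level of the macrophage genes had r of -0.75 with Slc2a2 over 22 livers and -0.36 over the 18 without the 4 KO livers, and its part in this result was not tested.

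Aldoa had 86.7, 99.1 and 117 CPM in WT and 76.0, 107 and 178 in KO livers, a log2 fold change of 0.27 (SE 0.11, adjusted p = 0.38, edgeR) that was 0.08 without the 4 livers and 0.15 with the dependence on gene length removed. Pkm had 15.7, 18.5 and 27.6 CPM in WT and 15.5, 18.6 and 78.8 in KO livers. The medians were almost equal, and 1 library, the KO liver of animal 532 with 2214 reads, set the fitted difference of 0.41 (SE 0.23, adjusted p = 0.39, edgeR). Without that liver the Pkm difference was 0.04. The same library had the highest sum of 5 macrophage genes, 706 CPM, where WT livers had 210 to 293, and the highest Hk2 level, 6.12 CPM against a KO median of 1.68. Macrophages express Pkm, and the part of these cells in the Pkm and Hk2 levels was not tested.

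Hk2, Pfkl and Pfkm did not pass even the unadjusted threshold in liver. Hk2 differed by 0.07 (SE 0.29), Pfkl by 0.13 (SE 0.08) and Pfkm by 0.06 (SE 0.07) on the log2 scale, and all 3 were negative without the 4 livers (-0.32, -0.01 and -0.02). Slc2a4 had 1 to 12 reads in WT livers and 1 to 6 in KO livers, a depth at which a difference could not be seen. Of the 27 pathway genes tested in liver, none passed the adjusted threshold and 5 had an unadjusted p under 0.05: Slc2a5, Hk3 and Ldha with higher and Aldoc and Pgam1 with lower means in KO livers. Without the 4 KO livers their log2 fold changes were 0.05, 0.06, 0.08, -0.38 and -0.10, and of these Aldoc still had an unadjusted p under 0.05 (adjusted p = 0.999, edgeR). Of 12 regulators tested, only Srebf1, a factor of lipogenic and glycolytic genes, had an unadjusted p under 0.05, with a log2 fold change of -0.25 (SE 0.11, adjusted p = 0.38). Without the 4 KO livers it was -0.22 (SE 0.13, adjusted p = 0.999).

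In skeletal muscle, none of the 6 members tested passed between WT and the libraries labelled KO (adjusted p between 0.60 and 0.98, edgeR). Of all 13266 genes 1 passed, or 0.00754%, and 8.64% had an unadjusted p under 0.05, which no member did. Slc2a4 had 434, 461 and 519 CPM in WT and 427, 457 and 495 CPM in those labelled KO. The ranges overlapped and the log2 fold change was -0.04 (SE 0.04). Hk2 had 195, 218 and 276 CPM in WT and 170, 217 and 241 CPM in those labelled KO, and differed by -0.10 on the log2 scale (SE 0.05, unadjusted p = 0.065). Pfkm, Aldoa and Pkm differed by -0.01 (SE 0.05), -0.02 (SE 0.07) and -0.03 (SE 0.05). Pfkl, with 162 to 483 reads a library, differed by -0.04 (SE 0.13). The SD of RPKM over its mean in WT muscle was 5.2% for Pfkm, 5.7% for Slc2a4, 6.9% for Pkm, 9.1% for Aldoa, 13.5% for Hk2 and 21.8% for Pfkl. In WT liver it was 9.8% for Slc2a2, 11.6% for Pfkl and 37.6% for Pklr. The length behind RPKM was not fixed between libraries, so these percentages also hold the spread of the authors' scaling. None of the 27 pathway genes tested in muscle had an unadjusted p under 0.05, and of 10 regulators 1 did, Mlxipl, which encodes ChREBP, with a log2 fold change of -0.13 (SE 0.04, adjusted p = 0.51).

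The difference between muscle and liver in the effect of the KO label was tested in a fit over all 44 libraries. The Slc16a13 reads could not settle this label in muscle, so the test compares libraries by label. No member passed (adjusted p between 0.31 and 0.75, edgeR), and none had an unadjusted p under 0.05. Of 14739 genes 1 was called, or 0.00678%, and 16.2% had an unadjusted p under 0.05. The largest interaction among members with reads in both tissues was that of Slc2a4, 0.58 on the log2 scale (SE 0.30, adjusted p = 0.32), and it rests on the few liver reads of this gene. No value is given for Slc2a2 and Pklr, whose muscle counts were at or near 0.

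**Figure D4:**
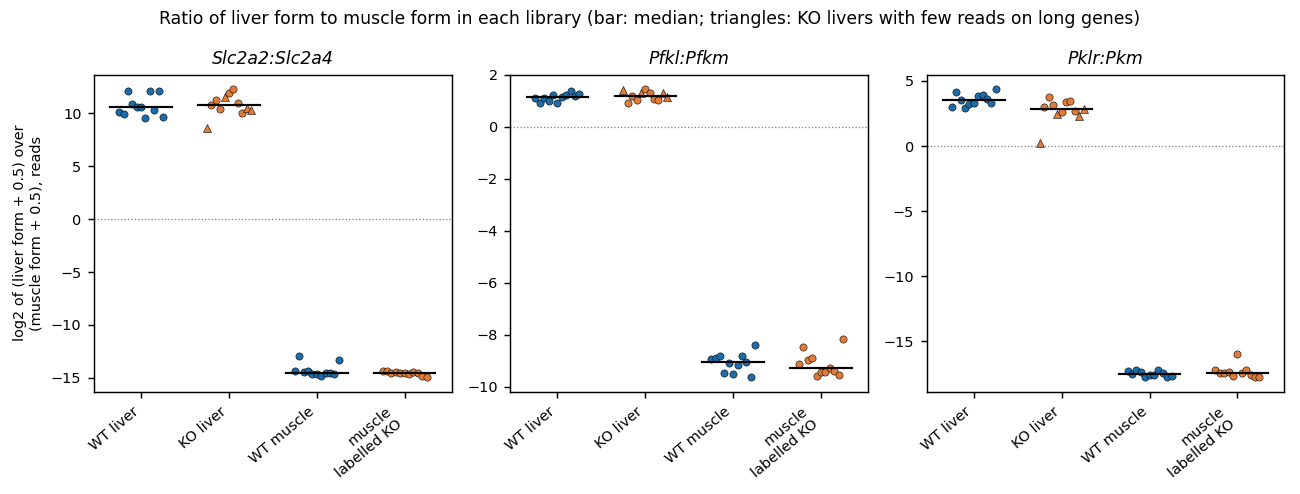
Log2 ratio of liver form to muscle form, in reads plus 0.5, for 3 pairs in each of the 44 libraries, with the median as a bar and the 4 KO livers with few reads on long genes as triangles. All ratios are above 0 in liver and below 0 in muscle, and the lowest liver ratio of Pklr to Pkm, 0.24, belongs to animal 532.

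The ratio of liver form to muscle form within a library does not depend on library size and was compared between genotypes by two-sided permutation tests with 100000 resamples. P-values were adjusted over the 10 comparisons computed, of which those for 3 pairs are given. For these pairs, in every liver the liver form had more reads and in every muscle library the muscle form did. None of the 10 ratios passed after adjustment over them. The ratio of Pklr to Pkm in liver came nearest, with a mean log2 ratio of 3.56 ± 0.47 (SD, n = 11) in WT livers. In KO livers it was 2.74 ± 0.94 (SD, n = 11), a difference of -0.83 (permutation p = 0.0059, adjusted p = 0.059). The ratios were 2.93, 3.51 and 4.39 in WT and 0.24, 2.81 and 3.78 in KO livers, so the ranges overlapped. With the deposited RPKM in place of counts this ratio passed (-0.96, permutation test, adjusted p = 0.019, pseudocount 0.1), and without the 4 KO livers it was -0.39 (adjusted p = 0.78). It also passed without 1 of 5 libraries, the WT livers 516 and 536 and the KO livers 568, 588 and 597, with adjusted p from 0.014 upwards, and not without any 1 of the others. Without the KO liver of animal 532, which had the lowest ratio, the difference was -0.58 (permutation test, adjusted p = 0.12), and without WT liver 528 the adjusted p was 0.14.

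In liver, the ratios of Slc2a2 to Slc2a4 and Pfkl to Pfkm each differed by 0.06 (permutation test, adjusted p of 0.98 and 0.78). The ratio of Pfkl to Pfkm was held within a narrow range, from 0.90 to 1.38 in WT and from 0.90 to 1.45 in KO livers, whereas that of Slc2a2 to Slc2a4, which rests on few Slc2a4 reads, ran from 9.58 to 12.14 in WT livers. In muscle, the ratio of Pfkl to Pfkm differed by -0.05 (permutation test, adjusted p = 0.97), and the other ratios rest on liver forms with 0 to 1 reads a library.

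Across the 22 muscle libraries Pfkm, Aldoa and Pkm varied together, with Pearson's r of log2 CPM, centred within genotype, of 0.91 for Pfkm and Aldoa, 0.94 for Pfkm and Pkm and 0.93 for Aldoa and Pkm. Each of these had a permutation p of 1e-05, the smallest that 100000 resamples can give, and an adjusted p of 4.3e-05 over 13 pairs. Spearman's rho was 0.87, 0.94 and 0.90 with the same permutation p. After removal of the 2 libraries that lay farthest from the median of the first gene, r was 0.87, 0.93 and 0.90. Within WT libraries r was 0.93, 0.97 and 0.95, and within the libraries labelled KO 0.89, 0.94 and 0.91. The amplitude was small: Pkm ran from 3100 to 3705 CPM and Aldoa from 15551 to 20263 CPM over the 22 libraries.

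**Figure D5:**
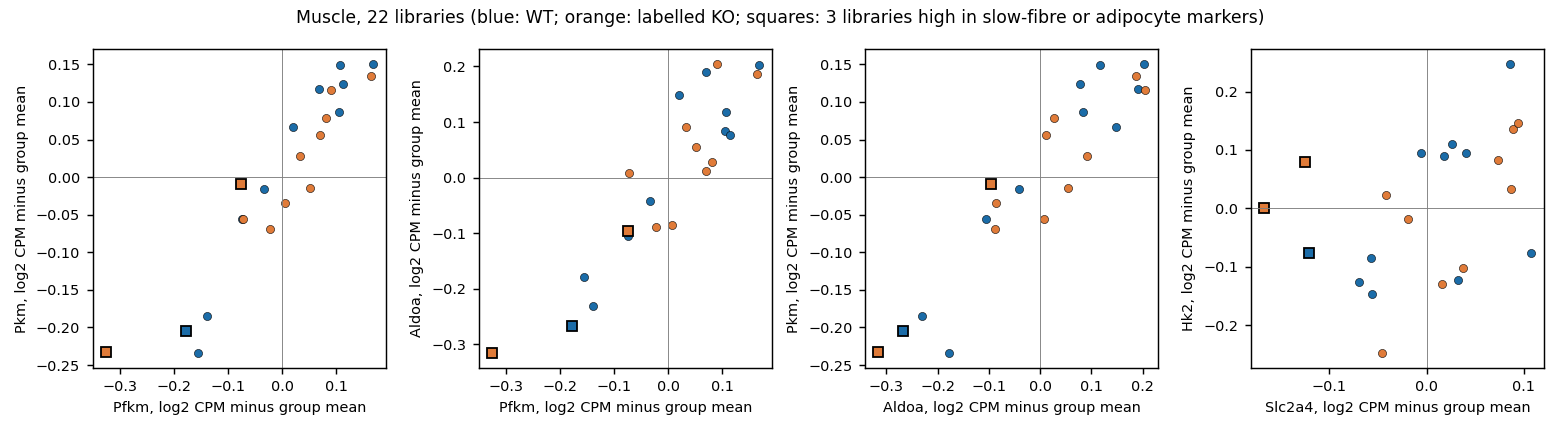
Each point is 1 of 22 muscle libraries, placed by the log2 CPM of a gene on each axis after subtraction of its group mean. Pfkm, Aldoa and Pkm lie along a line in the first 3 panels (r of 0.94, 0.91 and 0.93), and Slc2a4 and Hk2 scatter in the last (r of 0.39), where the 3 squares are muscle libraries high in slow-fibre or adipocyte markers.

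The makeup of the muscle libraries moved with these 3 genes. Their correlation with the log2 of the summed CPM of the 7 myofibre genes was 0.82 for Pfkm, 0.87 for Aldoa and 0.80 for Pkm over 22 libraries. With that of 5 adipocyte genes it was -0.81, -0.67 and -0.70. With the macrophage genes it was -0.83, -0.83 and -0.75, with the endothelial genes -0.82, -0.84 and -0.74, and with the slow-fibre genes -0.56, -0.62 and -0.59. The slow-fibre sum was higher in WT liver (median 280 CPM) than in WT muscle (median 50.8 CPM). Its genes are therefore not particular to slow fibres, and r with this sum is not a measure of fibre type alone. The adipocyte sum ranged from 89.1 to 399 CPM in WT and from 126 to 910 CPM in the libraries labelled KO. Without the 3 libraries highest in adipocyte or slow-fibre markers (WT 531, labelled KO 561 and 611), the pairs had r of 0.86, 0.95 and 0.91. With the myofibre sum, Pfkm, Aldoa and Pkm then had r of 0.64, 0.81 and 0.75, and with the slow-fibre sum -0.80, -0.88 and -0.80. With the adipocyte sum they had -0.79, -0.56 and -0.74. For the macrophage sum r was -0.78, -0.79 and -0.73, and for the endothelial sum -0.67, -0.78 and -0.68. Whether the share of myofibres sets the joint variation was not tested.

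Hk2 was not shown to follow these 3 genes. Its correlations with Pfkm, Aldoa and Pkm were -0.07, -0.13 and -0.03 (permutation test, adjusted p of 0.88, 0.75 and 0.90), and with the myofibre sum -0.15. The signs were opposite in the 2 groups, with r of 0.16, 0.22 and 0.22 within WT and -0.32, -0.58 and -0.43 within the libraries labelled KO, a difference that was not tested. Slc2a4 and Hk2, the pair that takes up and traps glucose in muscle, had r of 0.39 (permutation p = 0.081, adjusted p = 0.15; rho 0.49, permutation p = 0.027, adjusted p = 0.087). Without the 2 libraries farthest in Slc2a4 it was 0.56 (permutation p = 0.0097), on RPKM 0.62 (adjusted p = 0.0079), and without the 3 marker-rich libraries 0.60. Slc2a4 had r of 0.37, 0.38 and 0.25 with Pfkm, Aldoa and Pkm, none passing, and these turned negative on RPKM.

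In liver, the relations among Slc2a2, Pfkl and Pklr changed when the 4 KO livers were left out. Slc2a2 and Pfkl had r of -0.68 over 22 livers (permutation p = 0.0092, adjusted p = 0.030; rho -0.48, permutation p = 0.039, adjusted p = 0.10), which was -0.24 without the 2 farthest livers and 0.35 without the 4 KO livers. Within WT livers it was 0.52 and within KO livers -0.82. On RPKM over all 22 livers it was -0.26 (permutation test, adjusted p = 0.48). Slc2a2 and Pklr had r of 0.48 (permutation p = 0.012, adjusted p = 0.030; rho 0.40, permutation p = 0.061, adjusted p = 0.13), 0.39 without the 2 farthest livers, 0.15 within WT, 0.69 within KO livers and 0.30 without the 4 KO livers (permutation p = 0.22, not adjusted). On RPKM over all 22 livers, the 4 KO livers included, it was 0.68 (permutation test, adjusted p = 0.00036). Pfkl and Pklr had r of -0.05 over all livers, 0.54 within WT livers and 0.55 without the 4 KO livers (permutation p = 0.021, not adjusted).

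The genes most like each member in its own tissue were taken as the 3 with the highest Pearson's r over 22 muscle libraries, or over 18 livers after leaving out the 4 KO livers. These are descriptions with no test. Pkm was followed by Gapdh (0.95), Pfkm (0.94) and Smarcd3 (0.93), and Pfkm by Rxrg (0.95), Myoz1 (0.94) and Pkm (0.94). Aldoa was followed by Pygm, the muscle glycogen phosphorylase (0.95), Adipor1 (0.95) and Drap1 (0.95). Slc2a4 lay nearest to Wdr36 (0.85), Cpsf2 (0.84) and Oat (0.82), and Hk2 to Foxred1 (0.75), Tmem141 (0.73) and Pcdhb14 (0.71).

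In liver, Pklr was followed by Gbe1, the glycogen branching enzyme (0.93), Me1, the malic enzyme that makes NADPH for fat synthesis (0.91), and Hcn3 (0.91). Gapdh (0.84), Tpi1 (0.84), Eno1 (0.79) and Pgk1 (0.77) had the highest r with Pklr among the listed genes, and Mlxipl had -0.14. Slc2a2 was followed by Maml2 (0.80), 2610203C22Rik (0.78) and Zcchc24 (0.75), and Pfkl by Dnajc11 (0.81), Tpd52l2 (0.80) and Ptger1 (0.79). These values were lower than those of Pklr.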

How the data were processed

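Poly(A) RNA of both tissues of 22 mice was sequenced as single-end reads. Samples were grouped by the labels, and the animal number, shared by both tissues of a mouse, gave the pairing. Deviations in the liver and muscle of the same animal had a median r of 0.10 (range -0.03 to 0.26, 22 mice). For 12 mice r was over 0.1, and for 6 the own muscle had the highest r within the genotype. The pairing therefore rests on the labels. The authors deposited raw counts per gene and RPKM values scaled by them to gene length and library size. Aligner, annotation and genome build of the tables are not given in the sources used here, so genes were matched by name and identifier. Promoter windows carry RefSeq coordinates on GRCm38.p6. For 45.8% of well measured values the length implied by count and RPKM was off by over 1%, so RPKM is not the count over a fixed length.

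Counts were fitted with edgeR 4.0.16 in R 4.3.3 (TMM, filterByExpr, quasi-likelihood F-test). P-values were adjusted by Benjamini-Hochberg over all genes tested, with a threshold of 0.05. SE is the absolute log2 fold change over the root of F. Ratios and pairs were tested by permutation in Python (numpy 2.4.6). Alternatives used DESeq2 1.42.0, limma 3.58.1, other scalings, no filter, RPKM with pseudocounts of 0.1 and 1, gene length removed and libraries left out. On simulated counts 96.5% of 200 genes with a log2 change of 1 were recovered in liver (12923 genes, 9 false calls) and 98.5% between tissues in WT (13828 genes, 11 false calls). The changed genes were drawn from well counted genes, and no bias by gene length was simulated. These shares therefore do not give the power of the liver comparison. No 2 libraries of a group held identical counts, and each differed from the others by more than sampling noise. The genes named are the 8 members, the fixed pathway, regulator and marker lists, and the 3 genes most like each member. Some results of these lists and ratios are not reported here. Members and lists were chosen with earlier results of these data known.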

Additional observations from a re-analysis of the deposited data

How the results depend on the processing

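In all fits, no member was called between genotypes or in the interaction, and all 8 were called between tissues. Counts of called genes moved under some settings: in liver 6 with DESeq2 against 3; in muscle 0 with limma-voom, with no filter, on RPKM with either pseudocount and without the 3 marker-rich libraries, against 1 (1146 genes had an unadjusted p under 0.05 in the edgeR fit, and 1065 by limma-voom); in the interaction 44 with DESeq2, 3 by library size alone and 2 on RPKM with either pseudocount and with gene length removed, against 1. Of 10 ratios, 1 passed on RPKM with either pseudocount against 0, and 0 to 1 with a library left out. Of 13 pairs, 3 passed without the 4 KO livers and 3 in WT libraries alone, against 5. With the animal as a replicate block, 8 members were called between tissues in WT and 8 in KO mice (12674 and 12107 of all genes), and no call of a member changed.

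The following differences and correlations crossed 0. In liver, Hk2 was -0.087 by limma-voom, -0.094 on RPKM with a pseudocount of 0.1, -0.32 without the 4 KO livers and -0.24 without the liver of animal 532. Pfkl was -0.04 on RPKM with either pseudocount (-0.040 and -0.038) and -0.0090 without the 4 KO livers, Pfkm -0.0039 by library size alone and -0.015 without them, and Pkm -0.034 without them. In muscle, Pfkm was 0.011 by library size alone, 0.0094 on RPKM with either pseudocount and 0.021 without the 3 marker-rich libraries, and Aldoa was 0.0026 without these. In the interaction, Hk2 was 0.069 on RPKM (pseudocount 0.1) and 0.22 without the mice of the 4 KO livers, Pfkm 0.014 by library size alone, 0.0088 and 0.0089 on RPKM and 0.018 without those mice, and Pkm 0.013 without them. The liver ratio of Slc2a2 to Slc2a4 was -0.21 and -0.35 on RPKM and -0.14 with a prior count of 5, that of Pfkl to Pfkm -0.041 and -0.038 on RPKM, and the muscle ratio of Slc2a2 to Slc2a4 was 0.015 on RPKM with a pseudocount of 1. With each library left out in turn, the liver ratio of Slc2a2 to Slc2a4 ranged from -0.094 to 0.28 and the muscle ratio of Pfkl to Pfkm from -0.15 to 0.016. Among pairs, Slc2a2 with Pfkl had r of 0.35 without the 4 KO livers and 0.52 in WT alone, and Pfkl with Pklr 0.55, 0.54 and, on RPKM, 0.24. Hk2 with Pfkm, Aldoa and Pkm had r of 0.16, 0.22 and 0.22 in WT alone. Slc2a4 with Pfkm, Aldoa and Pkm had r of -0.063, -0.16 and -0.18 on RPKM and -0.16, -0.051 and -0.12 without the 3 marker-rich libraries. The cause was not tested. In KO mice the tissue difference of Pkm was 7.03 and with DESeq2, which replaces outlying counts, 4.34. The pooled CPM of Pkm were 24.6 in KO livers and 3453 in muscle libraries labelled KO, a ratio of 140. On the log2 scale, 4.34 falls well short of this ratio of the counts, and it is not taken as an estimate of the tissue difference. The settings without the 3 muscle libraries, without the liver of animal 532 and without that of animal 516 for carried Slc2a4 were chosen after seeing the data.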

Other observations

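Outside the 8 genes, 1 muscle library labelled KO (animal 602) stood apart at the entry of the pathway, which was noticed after the values were seen. It held 245 reads of Slc2a5, the fructose transporter, against 0 to 12 reads in the other 21 muscle libraries. The same library held 1214 reads of Hk1, the hexokinase of brain and many other tissues, against 142 to 378 in the others. Its share of Hk2 in hexokinase RPKM was 78.9%, the lowest of the libraries labelled KO, whose median was 92.3%.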
